A study of Rattus norvegicus with 15 samples.

Results

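Parp3, Plcg1, Cdc42bpb, Trim59 and Map6 are 5 of the 30454 genes measured in femurs of female SD rats by sequencing of polyadenylated RNA. They were chosen by their log2(FPKM + 1) values: their level in rats given Psoralea corylifolia Linn. (P), or both plants (PJ), differed from that in rats given walnut, Juglans regia L. (J). The differences of P and PJ from J therefore describe how the genes were chosen and carry no test here. A test is given only for ovariectomy against sham surgery, whose libraries the rule of choice did not use. Its main fit takes the spread between libraries from all 15, those of J, P and PJ included. All 5 had 1 row in the tables, and all 5 passed the filter of a mean of at least 1 FPKM (fragments per kilobase of gene, scaled to library size) that left 14416 genes for testing.

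The rats were 8 weeks old at the outset, and each of the 5 groups had 3 libraries. Sham rats lost fat in place of the ovaries, while the OVX, J, P and PJ rats lost both ovaries, the main source of estrogen. After 6 weeks of recovery, treatment ran for 8 weeks. Sham and OVX rats received saline, J rats 1.6 g per kg per day of walnut extract, P rats 2.4 g per kg per day of Psoralea extract, and PJ rats 4.0 g per kg per day of the combined extract, all by gavage. No group of intact rats received an extract. The sources do not say whether each library came from its own rat, so p-values measure the spread between libraries.

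The 5 proteins do different work and form no single pathway. PARP3 is a mono-ADP-ribosyltransferase that acts at DNA double-strand breaks. PLCG1 is the phospholipase C that receptor tyrosine kinases switch on, splitting a membrane lipid into the messengers IP3 and diacylglycerol. CDC42BPB, also called MRCK beta, is a kinase bound by the small GTPase CDC42 that promotes actomyosin contraction. TRIM59 is a RING-type E3 ubiquitin ligase of the tripartite motif family, and MAP6, also called STOP, stabilises microtubules and is best known from neurons.

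Library totals inferred from the FPKM values ran from 34351000 to 61025000 reads, rounded. A femur holds bone, marrow and attached tissue, and the groups differed widely in markers of these. The summed FPKM of 10 erythroid markers was 359 to 2227 in Sham, 30623 to 41206 in OVX, 17219 to 20909 in J, 3237 to 9176 in P and 1281 to 5799 in PJ. That of 10 cell cycle genes was 59.6 to 87.6 in Sham, 787 to 916 in OVX, 417 to 608 in J, 241 to 307 in P and 183 to 268 in PJ. In the other direction, the summed FPKM of 10 endothelial markers was 470 to 761 in Sham, 91.8 to 125 in OVX, 172 to 213 in J, 307 to 378 in P and 251 to 492 in PJ. That of 10 markers of fibroblasts and interstitial matrix was 2462 to 5317 in Sham, 136 to 211 in OVX, 442 to 484 in J, 957 to 5027 in P and 425 to 1773 in PJ. No marker of these 4 lists was at 0 in any library. All 10 erythroid and all 10 cell cycle genes rose in OVX against Sham, and all 10 endothelial and 7 of 10 fibroblast and matrix genes fell. Of 10 cartilage markers, summing to 4891 to 8669 FPKM in Sham and 1.86 to 3.44 in OVX, the defining genes Acan, Col9a1, Ucma and Clec3a were at 0 in at least 1 OVX library. Several libraries stood apart from the others of their groups. P 2 had a mean log2(FPKM + 1) of 6.4 over 10 cartilage markers against 1.6 and 2.2 in P 1 and P 3, PJ 3 had 0.4 against 4.7 and 5.4, and J 1 had 0.3 against 3.4 and 2.7 in J 2 and J 3. Sham 3 had a mean log2(FPKM + 1) of 5.4 over 10 osteoclast markers against 1.8 and 1.9 in Sham 1 and Sham 2, and of 6.9 over 10 osteoblast markers against 4.6 and 3.9. Mitochondrial genes held 35.9% of P 2 against 17.6% and 11.2% of P 1 and P 3. In bulk RNA, fewer cells of a type and less RNA per cell cannot be told apart, and the part of these marker shifts in the results was not tested.

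**Figure D1:**
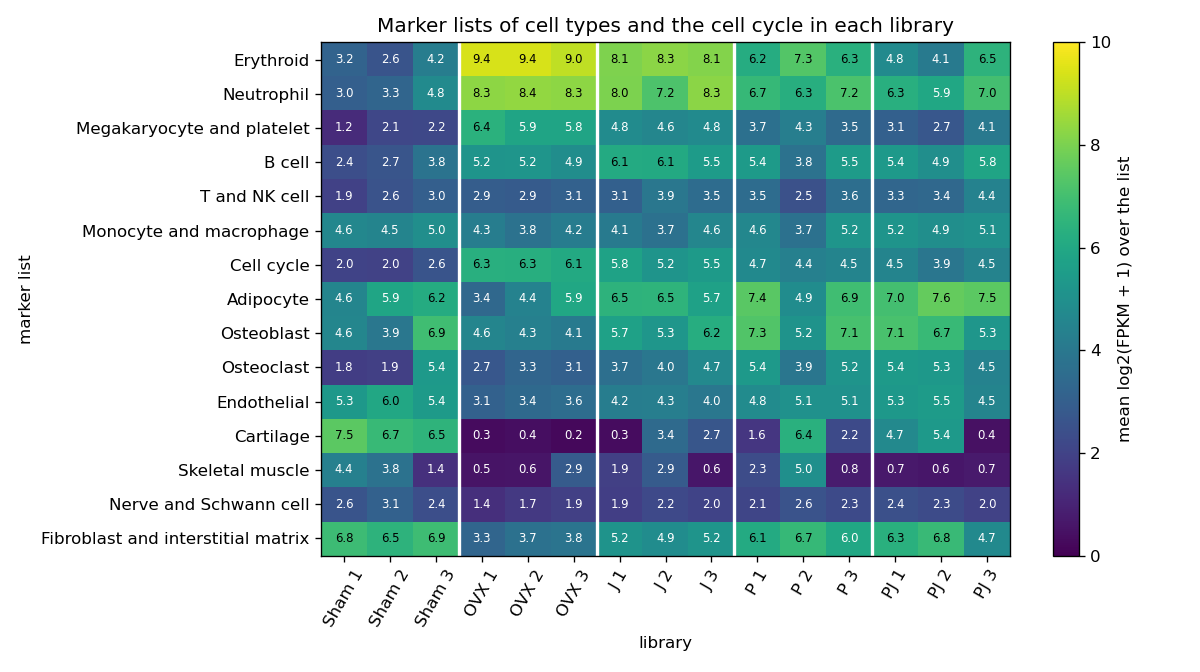
Mean log2(FPKM + 1) of 15 marker lists (rows) in the 15 libraries (columns), with the value printed in each cell and white lines between groups. The erythroid and cell cycle rows are highest in OVX and lowest in Sham, with J next to OVX, and the endothelial and fibroblast rows are lowest in OVX.

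The genes Parp3, Plcg1, Cdc42bpb and Map6, were highest in Sham, lowest in OVX and second lowest in J, while Trim59 had the reverse order. All 5 changed in OVX against Sham, where limma called 54.2% of all tested genes (25.3% higher and 28.9% lower). The OVX and Sham libraries did not overlap for any of the 5, as for 66.0% of tested genes (31.6% higher and 34.5% lower in OVX). With 3 libraries against 3, an exact two-sided permutation test gave its smallest possible p of 0.1 for each. In P against J and in PJ against J the groups also did not overlap for all 5, which the choice of the genes brings with it. In P against J the libraries were apart for 29.6% of tested genes (16.7% higher and 12.9% lower in P), and in PJ against J for 33.0% (22.5% higher and 10.5% lower in PJ). All 5 were also apart in P against OVX, PJ against OVX, J against Sham and P against Sham, as were 50.9%, 58.5%, 54.5% and 25.9% of tested genes. In PJ against Sham 3 were apart, where 37.3% of tested genes were, and in PJ against P none, where 4.02% were.

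**Figure D2:**
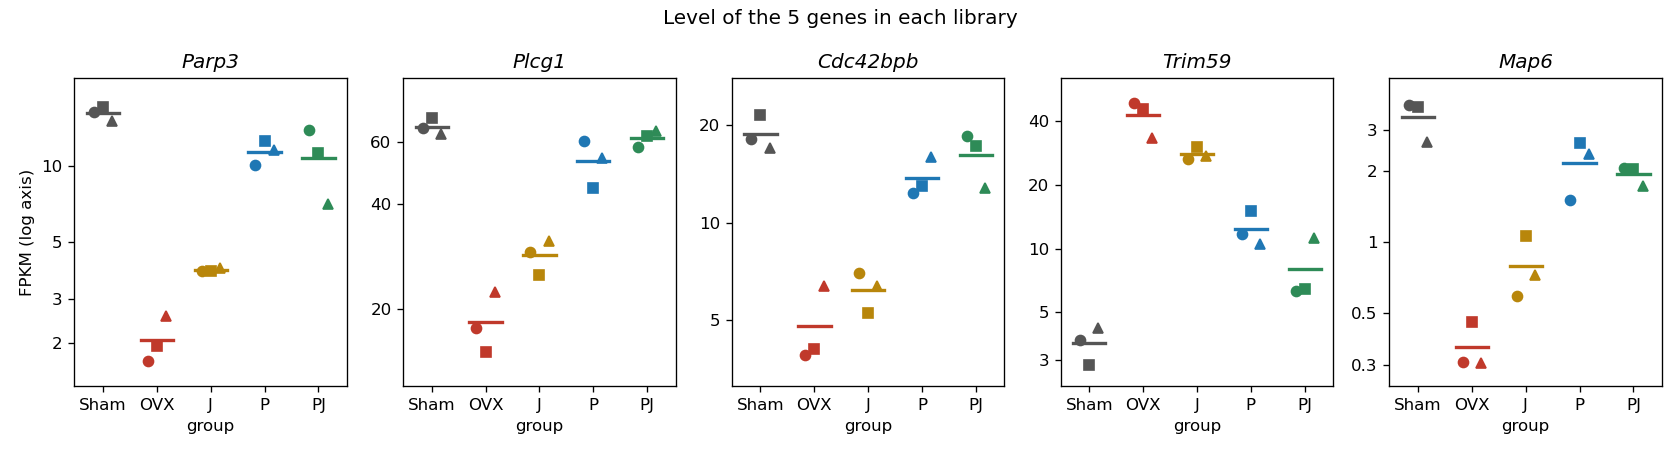
FPKM (log axis) of Parp3, Plcg1, Cdc42bpb, Trim59 and Map6 in each library, by group, with a bar at the group mean and a circle, square or triangle for replicate 1, 2 or 3. The mean of J is nearer to that of OVX than to that of Sham in all 5 panels, and J and OVX libraries overlap only for Cdc42bpb. The means of P and PJ sit between those of J and Sham, and Trim59 alone is highest in OVX.

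Promoter sequence from RefSeq (assembly GRCr8) is shown for 4 of the 5 genes, all but Map6, which had no entry in the promoter set used. Each run is the 250 bases before the annotated start, 5′ to 3′ on the strand of the gene, and capitals mark GC boxes (GGGCGG on either strand) and CCAAT boxes (CCAAT on either strand).
Parp3, chr8:115995473-115995722, minus strand: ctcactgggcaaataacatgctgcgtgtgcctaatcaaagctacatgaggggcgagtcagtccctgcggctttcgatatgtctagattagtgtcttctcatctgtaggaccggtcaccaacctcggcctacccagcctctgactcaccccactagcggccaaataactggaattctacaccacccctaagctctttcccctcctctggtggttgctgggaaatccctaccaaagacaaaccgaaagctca
Plcg1, chr3:169805049-169805298, plus strand: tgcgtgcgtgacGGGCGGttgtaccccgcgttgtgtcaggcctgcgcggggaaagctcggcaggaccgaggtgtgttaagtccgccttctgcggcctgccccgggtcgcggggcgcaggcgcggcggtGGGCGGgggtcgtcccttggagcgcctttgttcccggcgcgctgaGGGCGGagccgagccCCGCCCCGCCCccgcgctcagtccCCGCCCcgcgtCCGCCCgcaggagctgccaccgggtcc
Cdc42bpb, chr6:136237571-136237820, minus strand: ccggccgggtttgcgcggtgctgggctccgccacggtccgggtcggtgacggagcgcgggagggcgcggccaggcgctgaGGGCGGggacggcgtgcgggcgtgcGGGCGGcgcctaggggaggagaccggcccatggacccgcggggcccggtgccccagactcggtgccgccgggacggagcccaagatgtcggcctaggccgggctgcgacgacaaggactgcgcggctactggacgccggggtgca
Trim59, chr2:155590007-155590256, minus strand: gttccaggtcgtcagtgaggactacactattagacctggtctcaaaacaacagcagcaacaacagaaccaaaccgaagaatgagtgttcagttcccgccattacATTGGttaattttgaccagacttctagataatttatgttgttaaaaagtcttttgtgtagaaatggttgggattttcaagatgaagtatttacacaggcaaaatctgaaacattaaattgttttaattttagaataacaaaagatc

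The 4 promoters differed in base composition and in these letters. Plcg1 had 76.8% G and C with 37 CpG pairs and 7 GC boxes, and Cdc42bpb 78.4% with 38 pairs and 2 boxes. Parp3 (52.4%, 8 pairs) and Trim59 (34.8%, 3 pairs) had no GC box, and Trim59 had 1 CCAAT box. Over all 33469 promoters in the table the median was 51.2% with 5 pairs, 30.5% held a GC box and 34.0% a CCAAT box in the same 250 bases. The letters GCGTG, the core of xenobiotic response elements, stood on either strand 1 time in Parp3 and 2 times each in Plcg1 and Cdc42bpb, and not in Trim59, against 25.9% of all promoters with at least 1. The AP-1 letters TGANTCA were in Parp3 only, against 6.34% of all. None of the 4 held the palindromic estrogen response element (0.0239% of all), the cell cycle letters TTTGAA (16.2%), the E2F letters TTTGGCGC (0.412%) or TATAAA (12.9%). These matches are descriptions of letters in this window and carry no evidence of binding.

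Parp3 (ENSRNOG00000012865) had an FPKM of 16.4, 17.01 and 15.0 in the 3 Sham libraries and of 1.69, 1.96 and 2.55 in OVX. In J it was at 3.87, 3.84 and 3.95, in P at 10.1, 12.5 and 11.5, and in PJ at 13.8, 11.3 and 7.11. The J libraries had a mean of 3.88 with a standard deviation (SD) of 0.057, the tightest group of any of the 5 genes, and PJ 3 was the low library of its group. The mean fell from 16.1 ± 1.03 in Sham to 2.07 ± 0.44 in OVX (SD, n = 3 each), 7.79-fold lower. On the log2(FPKM + 1) scale the OVX minus Sham difference was -2.49 ± 0.19 (SE), with an adjusted p of 6.44e-07 in limma. P minus J was 1.34 ± 0.19 and PJ minus J 1.22 ± 0.19 on that scale, where PJ minus J was 1.47 without PJ 3. PJ and P overlapped, with a difference of -0.12 ± 0.19.

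Of 25 genes on a list of PARP family and end-joining genes, 5 rose and 4 fell in OVX against Sham, with a median log2 difference of 0.14 against -0.04 over all tested genes. Parp1, the main DNA damage sensor of the family, rose from 18.1 ± 4.82 to 43.5 ± 2.95 FPKM (SD, n = 3 each; log2 difference 1.25 ± 0.25, adjusted p = 0.000861 in limma). Xrcc6, which codes for the Ku70 end-binding protein, rose by 0.97 ± 0.19, and the endoplasmic reticulum enzyme gene Parp16 fell by 0.74 ± 0.15. Parp2 did not pass (0.31 ± 0.19, adjusted p = 0.195 in limma). In P against J and in PJ against J limma called none of the 25 genes, voom on recovered reads called none either, and 4 had an unadjusted p under 0.05 in each. Array weights gave 4 and 10 calls, and leaving out Sham 3, P 2 and PJ 3 gave 6 and 5. Limma called 7.42% of all tested genes in P against J (4.37% higher and 3.05% lower) and 14.3% in PJ against J (8.38% higher and 5.88% lower). In OVX against Sham it called 54.2% (25.3% higher and 28.9% lower). These shares are the background for the counts of all 5 lists. The RefSeq annotation of a later assembly places Rrp9, a gene for a small nucleolar ribonucleoprotein factor, across part of Parp3, and the sources used here do not say whether counting used strand. Rrp9 had a mean FPKM of 12.7 ± 0.32 in Sham, 11.2 ± 1.85 in OVX, 12.2 ± 0.69 in J, 12.3 ± 1.22 in P and 12.6 ± 2.43 in PJ (SD, n = 3 each), and passed in none of OVX against Sham, P against J and PJ against J.

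Plcg1 (ENSRNOG00000051490) was the most abundant of the 5 per length, with a mean over all libraries of 45.6 FPKM, above 90.3% of tested genes. It was at 65.7, 70.3 and 63.3 in Sham and at 17.6, 15.0 and 22.3 in OVX. In J it was at 29.1, 24.9 and 31.3, in P at 60.4, 44.4 and 53.9, and in PJ at 58.2, 62.7 and 64.6. The PJ libraries overlapped with Sham, and P 2 was the low library of P. Mean FPKM fell from 66.4 ± 3.58 in Sham to 18.3 ± 3.72 in OVX (SD, n = 3 each), and the log2 difference was -1.82 ± 0.15 (SE, adjusted p = 1.27e-06 in limma). P minus J was 0.87 ± 0.15, PJ minus J 1.10 ± 0.15 and PJ minus P 0.23 ± 0.15, on the log2(FPKM + 1) scale.

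Plcg2, the second phospholipase C gamma and the form of blood cells, had means that moved opposite to Plcg1 from Sham to OVX and from J to P or PJ. Both genes had a higher mean in J than in OVX and in PJ than in P. For Plcg2 the libraries overlapped in both pairs, and neither difference passed (log2 0.23 ± 0.23 and 0.31 ± 0.23, SE). Plcg2 had a mean FPKM of 10.4 ± 1.25 in Sham, 30.8 ± 1.83 in OVX, 36.7 ± 6.17 in J, 18.8 ± 4.58 in P and 24.1 ± 8.25 in PJ (SD, n = 3 each). It rose in OVX against Sham by 1.48 ± 0.23 (SE, log2, adjusted p = 0.00017 in limma) and was lower in P than in J by a log2 difference of -0.94 ± 0.23 (adjusted p = 0.0404 in limma), while PJ minus J did not pass (-0.63 ± 0.23, adjusted p = 0.0889). So Plcg2 was above Plcg1 in the mean of OVX and of J, and below it in Sham, P and PJ. Of 32 genes of receptors, adaptors and calcium or diacylglycerol targets around PLC gamma, Plcg2 included, 11 rose and 15 fell in OVX, with a median log2 difference of -0.59. Those of smallest p were Itpr3, an IP3 receptor of the calcium store (-1.95 ± 0.17), and the blood cell genes Btk (2.86 ± 0.30), a kinase upstream of PLC gamma, and Rasgrp2 (2.91 ± 0.32), an exchange factor of platelets. Beside these, 10 megakaryocyte and platelet markers summed to 55.5 to 98.2 FPKM in Sham and 1801 to 2917 in OVX, with Gp1bb at 0 in a library of each and Gp6 in one of Sham. Sums of 10 neutrophil markers were 254 to 839 and 19537 to 22329, with none at 0, and of 10 B cell markers 71.9 to 231 and 429 to 640, with Vpreb1 at 0 in a Sham library. Of those tested, 9 of 9 megakaryocyte and platelet, 8 of 9 neutrophil and 7 of 10 B cell markers rose, and their part in the list's changes was not tested. In PJ against J 9 of the 32 rose and 1 fell, among them the docking protein gene Gab1 (6.47 ± 1.96 FPKM in J and 13.3 ± 1.91 in PJ, SD, n = 3 each), Nfatc1 (10.1 ± 0.76 FPKM in J and 17.7 ± 4.29 in PJ), a calcium-regulated factor of osteoclast formation, and the receptor gene Fgfr1 (1.65 ± 0.44, log2 ± SE). Markers of osteoclasts, 10 in number and none at 0 in J or PJ, summed to 503 to 1231 FPKM in J and 1169 to 2776 in PJ. Limma called none of them in PJ against J, voom called none, and 1 had an unadjusted p under 0.05. Their part in the Nfatc1 values was not tested. In P against J 2 rose, Pdgfra (1.79 ± 0.39) and Gab1 (0.75 ± 0.21), and Plcg2 fell. The PJ against J count of 10 was 0 without PJ 1 or without PJ 2, 2 without J 1 or without J 3, 3 without J 2 and 18 without PJ 3.

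Cdc42bpb (ENSRNOG00000009675) had an FPKM of 18.0, 21.3 and 16.9 in Sham and of 3.93, 4.08 and 6.37 in OVX. In J it was at 7.01, 5.26 and 6.37, in P at 12.3, 12.9 and 15.9, and in PJ at 18.5, 17.2 and 12.8. It was the only one of the 5 whose J and OVX libraries overlapped, J minus OVX being 0.33 ± 0.19 (SE) on the log2(FPKM + 1) scale. For the other 4 they lay apart, as for 37.6% of tested genes. Its PJ libraries overlapped with both P and Sham. The mean fell from 18.8 ± 2.30 in Sham to 4.79 ± 1.37 in OVX (SD, n = 3 each), a log2 difference of -1.79 ± 0.19 (SE, adjusted p = 6.66e-06 in limma). P minus J was 1.03 ± 0.19 and PJ minus J 1.24 ± 0.19.

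Both sister kinases of Cdc42bpb also fell in OVX and were higher in PJ than in J. Cdc42bpa, which codes for MRCK alpha, had a mean FPKM of 25.2 ± 2.59 in Sham, 8.53 ± 0.51 in OVX, 7.60 ± 0.94 in J, 16.3 ± 1.33 in P and 18.4 ± 5.63 in PJ (SD, n = 3 each). Its log2 difference was -1.46 ± 0.19 in OVX against Sham, 1.01 ± 0.19 in P against J and 1.14 ± 0.19 in PJ against J (SE, adjusted p = 3.27e-05, 0.0364 and 0.00496 in limma). Cdc42bpg, for MRCK gamma, fell by 1.02 ± 0.26 in OVX against Sham and rose by 1.01 ± 0.26 in PJ against J, and did not pass in P against J (0.61 ± 0.26, adjusted p = 0.14 in limma). Of 30 genes of CDC42, its effectors and myosin kinases in the files, 27 were tested, of which 5 rose and 8 fell in OVX against Sham. Limma called 54.2% of all tested genes there. Of the risers Cit, for a kinase of cell division, had the smallest p (2.46 ± 0.24), and Wasl, for the actin nucleation factor N-WASP, fell (-0.91 ± 0.13). In P against J only Cdc42bpa of the 27 rose, where 7.42% of all tested genes were called. In PJ against J 6 rose, including Wasl (0.45 ± 0.13), and 1 fell, where 14.3% of all tested genes were called. These 7 were 1 without PJ 1 or without PJ 2, 2 without J 1 or without J 3, and 3 without J 2.

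Map6 (ENSRNOG00000027204) was the least abundant of the 5, with a mean of 1.74 FPKM, above only 8.22% of tested genes. Its FPKM was 3.83, 3.76 and 2.67 in Sham and 0.31, 0.46 and 0.30 in OVX. In J it was at 0.59, 1.06 and 0.72, in P at 1.51, 2.65 and 2.37, and in PJ at 2.07, 2.04 and 1.74. All Sham libraries were above all others, and no other pair of groups except P and PJ overlapped. The OVX values rest on 44 to 69 recovered reads a library and those of Sham on 322 to 663. RefSeq places another gene, LOC120099891, across part of Map6, so reads of the pair may not be told apart without strand. Mean FPKM fell 9.57-fold, from 3.42 ± 0.65 in Sham to 0.36 ± 0.088 in OVX (SD, n = 3 each), and the log2(FPKM + 1) difference of -1.69 ± 0.18 (SE, adjusted p = 7.35e-06 in limma) understates this at such low values. With a pseudocount of 0.1 the same difference was -2.94. Map6 passed the filter through Sham, P and PJ, with means of 3.42, 2.17 and 1.95 FPKM. The means of OVX (0.36) and J (0.79) were under the 1 FPKM it asks for. Without a filter the log2(FPKM + 1) difference was again -1.69, with an adjusted p of 1.52e-05 in limma. P minus J was 0.81 ± 0.18 and PJ minus J 0.73 ± 0.18, and 1.35 and 1.23 with a pseudocount of 0.1.

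Of 27 microtubule-associated protein genes in the files 20 were tested, of which 12 fell and 3 rose in OVX against Sham, with a median log2 difference of -0.84. Map4, the widespread microtubule-associated protein, fell from 34.6 ± 5.85 to 10.0 ± 1.43 FPKM (SD, n = 3 each, adjusted p = 4.09e-06 in limma) and Mapre3, for the plus-end protein EB3, fell by 2.90 ± 0.30 on the log2 scale. Stmn1, for stathmin, which takes microtubules apart and is high in dividing cells, rose from 7.62 ± 1.99 to 108.3 ± 16.4 FPKM. In P against J 4 rose and none fell, and in PJ against J 6 rose and 1 fell. Clip1, for a plus-end linker, had a mean of 5.85 ± 0.29 in J, 9.62 ± 0.86 in P and 9.79 ± 1.68 in PJ (SD, n = 3 each). Map1a, for a neuronal form, differed by 0.83 ± 0.22 and 0.91 ± 0.22 and Map7d2 by 0.91 ± 0.22 and 0.80 ± 0.22, in P and PJ against J (log2 ± SE). The PJ against J count of 7 was 0 without PJ 1 or without PJ 2, 1 without J 3, and 2 without J 1 or without J 2. Map6d1, the gene most like Map6 by name, had at most 39 reads in a library and was under the filter. Markers of nerve and Schwann cells, 10 in number, summed to 176 to 232 FPKM in Sham, 38.5 to 112 in OVX, 95.6 to 130 in J, 143 to 241 in P and 188 to 271 in PJ, with Nefl, a neuronal filament gene, at 0 in a library of OVX, J and P and Gap43 at 0 in 1 or more of OVX. By group median these sums were highest in PJ, unlike Map6. Median sums of the endothelial, cartilage, and fibroblast and matrix lists were highest in Sham, lowest in OVX and second lowest in J. The means of Map6, Parp3, Plcg1 and Cdc42bpb had that same order at these places. The part of any of these lists in the levels of the genes was not tested.

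Trim59 (ENSRNOG00000010515) had an FPKM of 3.71, 2.82 and 4.22 in Sham and of 48.6, 45.2 and 33.1 in OVX. In J it was at 26.3, 30.002 and 27.4, in P at 11.7, 15.0 and 10.5, and in PJ at 6.33, 6.43 and 11.2. All other groups were above Sham with no overlap, and PJ and P overlapped through PJ 3. The mean rose 11.8-fold, from 3.58 ± 0.71 in Sham to 42.3 ± 8.14 in OVX (SD, n = 3 each), the widest ratio of the 5 genes. The log2 difference was 3.23 ± 0.22 (SE, adjusted p = 2.77e-07 in limma). P minus J was -1.12 ± 0.22, PJ minus J -1.73 ± 0.22 and PJ minus P -0.60 ± 0.22. PJ 3, the library of PJ with the most Trim59, also had the most erythroid RNA of its group, with a summed FPKM of 5799 against 1607 and 1281. In P the same held of P 2, at 9176 against 3237 and 4756. OVX 1 and Sham 3 likewise had the most of both in their groups. In J it did not hold by summed FPKM: J 2 had the most Trim59, at 30.002 FPKM, and the lowest erythroid sum, 17219. J 3 had the highest sum of J, 20909, with Trim59 at 27.4. By mean log2(FPKM + 1) of the same markers, J 2 was the highest library of J. It was at 8.28, against 8.08 in J 1 and 8.14 in J 3. By that measure PJ 3, P 2, OVX 1 and Sham 3 were also the highest of their groups. The erythroid sums were ordered OVX, J, P, PJ and Sham by group median, as were the means of Trim59. The sums of the cell cycle, neutrophil, and megakaryocyte and platelet lists had that same order of medians. The part of any of these lists in the Trim59 levels was not tested.

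Trim13, a close relative of Trim59, had a mean FPKM of 1.33 ± 0.47 in Sham, 1.37 ± 0.23 in OVX, 1.83 ± 0.16 in J, 1.60 ± 0.33 in P and 1.12 ± 0.19 in PJ (SD, n = 3 each), and passed in none of OVX against Sham, P against J and PJ against J. Ift80, a cilium gene named in a known read-through transcript with the human TRIM59 gene, rose in OVX by 0.74 ± 0.20 (SE, log2, adjusted p = 0.00709 in limma) and passed in neither P against J (-0.27 ± 0.20) nor PJ against J (-0.28 ± 0.20). RefSeq also holds 1 pseudogene named after Trim59, and reads shared with it cannot be told apart here. Of 34 TRIM family genes in the files 29 were tested, of which 9 rose and 12 fell in OVX against Sham. Trim58 and Trim10, which are erythroid genes, rose from 0.39 ± 0.42 to 46.9 ± 15.2 and from 0.68 ± 0.46 to 57.9 ± 7.29 FPKM (SD, n = 3 each). In PJ both were lower than in J, by log2 differences of -2.73 ± 0.42 for Trim58 and -2.89 ± 0.43 for Trim10 (adjusted p = 0.00453 for both in limma). Trim62 ran the other way, at 6.18 ± 1.83 FPKM in Sham, 0.28 ± 0.13 in OVX, 0.85 ± 0.36 in J and 2.54 ± 0.92 in P. Trim3, for a ligase known from neurons, was at 8.46 ± 1.48 in J, 15.0 ± 0.59 in P and 16.2 ± 1.37 in PJ. Of the 29 genes 2 rose and 2 fell in P against J, with Trim37 among those that fell (-0.53 ± 0.14), and 4 rose and 3 fell in PJ against J. The count of 7 in PJ against J was 3 without PJ 2, 4 without PJ 1 or without J 1, and 11 without PJ 3.

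The P against J calls of the lists other than that of PARP and end joining rested on few libraries: limma called no gene at all in that comparison without P 1, without P 3, without J 1 or without J 3, where 3665, 3420, 3153 and 3234 genes had an unadjusted p under 0.05. Without J 2 it called 328 genes and at most 1 of each list. Without P 2 it called 859, and the TRIM family count was 2 and the microtubule count 1, each against 4 with all libraries.

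**Figure D3:**
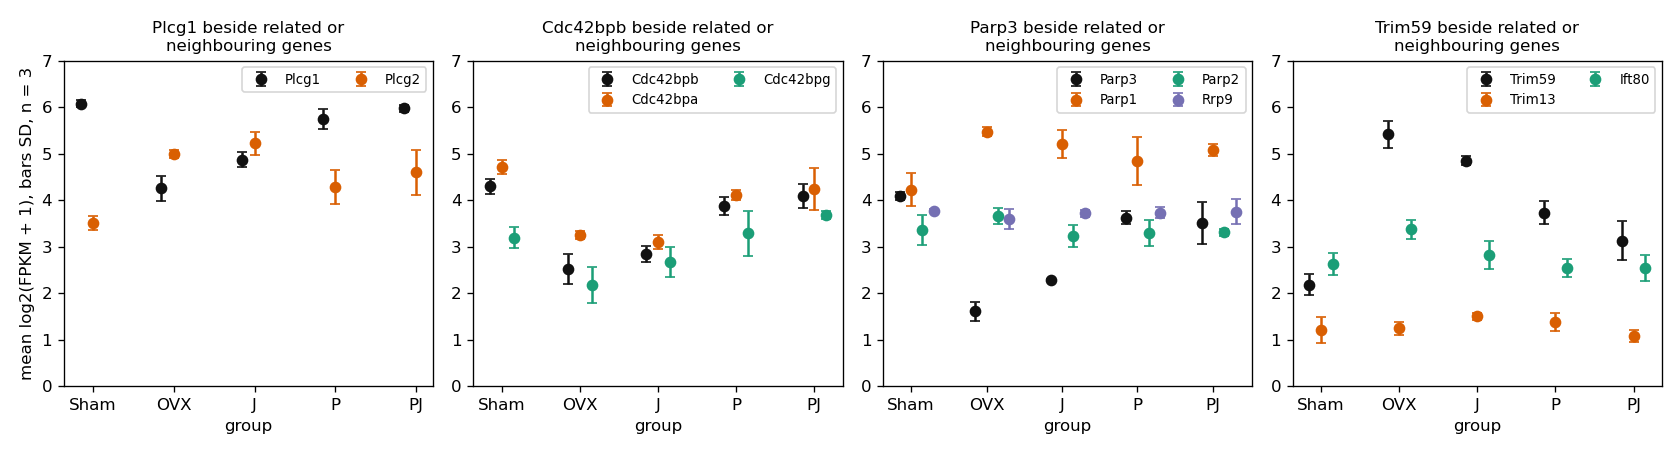
Mean log2(FPKM + 1) with SD (n = 3) by group for Plcg1 with Plcg2, Cdc42bpb with Cdc42bpa and Cdc42bpg, Parp3 with Parp1, Parp2 and the overlapping Rrp9, and Trim59 with Trim13 and Ift80. Plcg1 and Plcg2 cross between Sham and OVX, the 3 Cdc42bp genes each have their lowest mean in OVX or J, and Rrp9 and Trim13 passed in neither OVX against Sham nor against J.

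J stood nearer to OVX than to Sham for each gene, and the share of all tested genes placed so was not computed. Over all tested genes, J and OVX libraries were apart for 37.6% and J and Sham libraries for 54.5%. On the log2(FPKM + 1) scale, with the OVX mean at 0% and the Sham mean at 100%, J lay at 27.3% for Parp3, 34.1% for Plcg1, 18.7% for Cdc42bpb, 23.3% for Map6 and 17.5% for Trim59. P lay at 81.1%, 81.7%, 76.1%, 71.4% and 52.2%, and PJ at 76.4%, 94.4%, 88.1%, 66.1% and 70.9%, in the same order. The highest J library of any gene reached 41.8% (Plcg1) and the lowest P or PJ library 43.9% (Trim59). PJ was nearer to Sham than P for Plcg1, Cdc42bpb and Trim59 by these means, and P was nearer for Parp3 and Map6, but P and PJ libraries overlapped in all 5. The widest spread within a group was that of Parp3 in PJ, from 56.7% to 91.7%. For Map6, with means of 0.36 FPKM in OVX and 0.79 in J, the percentages depend on the pseudocount. They were computed with a pseudocount of 1 only. The OVX and Sham means enter every one of these values, so they share the libraries of both groups. The genes were chosen for P or PJ differing from J, so the distance of J from P and PJ is part of that choice.

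**Figure D4:**
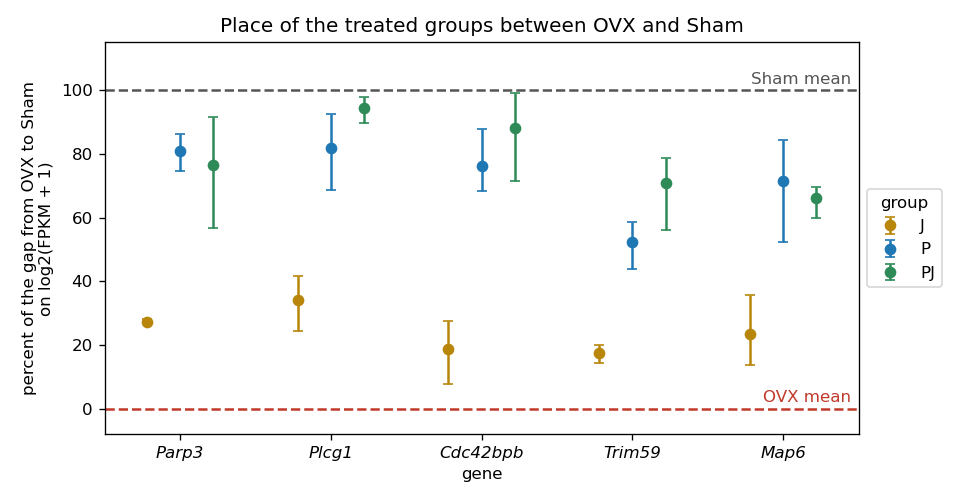
Place of J, P and PJ between the OVX mean (0%) and the Sham mean (100%) on log2(FPKM + 1) for each gene, with points at the group mean and bars from the lowest to the highest of 3 libraries. J lies at 17.5% to 34.1% and P and PJ at 52.2% to 94.4%, where the genes were chosen for P or PJ differing from J.

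Across the 15 libraries the 4 genes that were high in Sham followed each other, with Pearson r of log2(FPKM + 1) from 0.89 (Plcg1 with Map6) to 0.97 (Parp3 with Cdc42bpb), and Trim59 ran against them, with r from -0.93 to -0.96. These r values are all taken over the same 15 libraries, describe differences between 5 groups and carry no p. By the same measure the tested genes most like Parp3 were Rbms2 (r = 0.991), Pea15 (0.989) and the polarity gene Pard3 (0.989). For Plcg1 they were Mpdz, a PDZ scaffold gene (0.985), Fam149b1 (0.984) and Txnrd3, a thioredoxin reductase gene (0.983). For Cdc42bpb they were Arhgap32, for a GTPase-activating protein of CDC42 and related GTPases (0.986), Sptan1, for a spectrin of the membrane skeleton (0.982), and Trio, for a GTPase exchange factor (0.980). For Map6 they were Plekha1 (0.980), Plec, for the cytoskeletal linker plectin (0.979), and Trim62 (0.978). For Trim59 they were the cell cycle phosphatase gene Cdc25b (0.992) and the heme synthesis genes Uros (0.991) and Cpox (0.991). Cdc25b had a mean FPKM of 10.6 ± 3.17 in Sham, 256 ± 43.4 in OVX, 131 ± 15.6 in J, 52.3 ± 12.3 in P and 31.6 ± 16.0 in PJ, and Rbms2 40.4 ± 2.16, 12.6 ± 1.13, 17.2 ± 1.31, 30.4 ± 2.94 and 29.99 ± 4.93 (SD, n = 3 each).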

How the data were processed

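The 15 femur libraries were grouped by their titles. Per the labels' protocols, TRIzol served for RNA extraction and a TruSeq kit for library preparation. The build mRatBN7.2 and the programs featureCounts 2.0.6, STAR 2.7.11a and fastp 0.23.4 are named, with no role, per the submitters' processing notes. The authors deposited FPKM values, in a column whose header says count, and the column headed FPKM was empty in all 15 files. Of 30454 genes, 4319 had no name.

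The FPKM steps of low genes gave a length and reads whole within 0.05 for 24207 of 24207 genes above 0, and library totals. Recovered reads made up 99.98% to 99.99% of these totals. Of recovered counts from 1 to 20, 64.3% were even, so totals may be read ends. Read numbers cover counting error only.

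Values were analysed as log2(FPKM + 1) with limma 3.58.1 in R 4.3.3, over 15 libraries, with variances following mean expression, two-sided tests and Benjamini-Hochberg adjustment over 14416 genes with a mean of at least 1, at a threshold of 0.05. The fit was tested on simulated data. SE are those of the fit. The 5 members, 5 pathway lists and 15 marker lists were chosen with earlier results of these data known. Named besides the members were up to 3 genes per pathway list and comparison with the smallest p among those that passed, and the 3 genes most like each member by Pearson r. Relatives (Plcg2, Cdc42bpa, Cdc42bpg, Map6d1, Parp2, Trim13) and neighbours (Rrp9, Ift80) were added for kinship or position. Alternatives were another pseudocount, filters, scalings, weights per library, a block for the replicate number, fitting a pair of groups alone, leaving out libraries, and, added after the data were seen, voom on recovered reads.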

Additional observations from a re-analysis of the deposited data

How the results depend on the processing

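All 5 genes kept their direction and an adjusted p under 0.05 in OVX against Sham under every alternative run, 84 fits in all, where Map6 was not tested at a mean FPKM of at least 5. Their log2 difference ran from -2.98 to -2.40 for Parp3, -1.97 to -1.69 for Plcg1, -2.0 to -1.69 for Cdc42bpb, 3.11 to 3.55 for Trim59 and -3.27 to -1.62 for Map6, and the highest adjusted p was 0.00037. With only the 2 groups compared, where no J, P or PJ library entered, adjusted p in limma ran from 4.11e-05 (Parp3) to 0.00037 (Cdc42bpb). Of 168 refits of their P minus J and PJ minus J differences none changed sign and 12 moved by more than 1 SD.

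The numbers of all genes called were less steady. OVX against Sham had 7813 (5727 to 9781 over its alternatives). P against J had 1069, with 515 at a pseudocount of 0.1, 4197 with array weights, 3141 without Sham 3, P 2 and PJ 3, and 0 in limma without a filter, after rescaling to TPM or with only the 2 groups compared, where 4934, 3890 and 3348 genes had an unadjusted p under 0.05. Leaving out 1 library gave 0 to 859, being 328 without J 2. PJ against J had 2056, with 7405 with array weights, 616 with only the 2 groups compared and 5358 without Sham 3, P 2 and PJ 3. Leaving out 1 library gave 397 (without PJ 2) to 3821 (without PJ 3), with 612 without PJ 1, 843 without J 1 and 925 without J 3. Voom on recovered reads called 784 and 2110. The share called higher was 58.9% in P against J and 58.8% in PJ against J, but 41.5% and 34.3% with median-ratio scaling and 75.4% in PJ against J after rescaling to TPM. Rescaling to TPM moved the median log2 difference of all genes in PJ against J from 0.14 to 0.315 and in OVX against Sham from -0.04 to -0.16, and median-ratio scaling moved the former to 0.009. Of 255 refits of list counts 90 moved by more than 1.5 times. The causes were not tested.

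With the replicate block, 7769, 917 and 1972 genes were called in the 3 comparisons and all 5 genes passed in OVX against Sham, with adjusted p up to 3.84e-05. Libraries share only a number: deviations of same-numbered libraries correlated at -0.41 to 0.49, and 5 of 15 libraries were closest to their own number.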
